A study of Mus musculus with 12 samples.

Results

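Lipid droplets are the cell's stores of neutral lipid, and 10 genes of their coat and of lipolysis were followed across 12 RNA-seq libraries of neural stem/progenitor cells (NPCs) from the mouse subventricular zone (SVZ). The genes were chosen by name: Plin2, Plin3 and Plin4 for the droplet coat, Pnpla2, Lipe and Mgll for lipolysis inside the cell, Abhd5 and G0s2 for its control, and Lpl and Angptl4 for lipolysis outside the cell. They are 10 of the 24108 genes listed in the count table, and all 10 passed the low-count filter that kept 13745 genes. Plin4 passed it only through the co-culture libraries, since none of the 6 libraries of NPCs alone reached the minimum of 0.521 CPM (counts scaled to a common library size) that the filter sets.

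The NPCs were p53-/- or p53+/+ and were kept for 48 h in co-culture, on a monolayer of primary brain microvascular endothelial cells (bmvECs), or alone, on laminin. This gave 4 groups of 3 libraries: p53-/- co-cultures, p53+/+ co-cultures, and p53-/- and p53+/+ NPCs on laminin, called alone below. By the study's methods, p53-/- NPCs were p53loxP/loxP NPCs infected with an adenovirus that expresses iCre from a CMV promoter, the control virus carried the CMV promoter without iCre, and all cultures came from postnatal SVZ tissue, labelled C57BL/6, and grew in medium with EGF and bFGF. Deletion was thus made in culture, co-cultured NPCs were lifted off the bmvECs by selective trypsinization, and bmvEC RNA can remain in those samples. Each group holds 1 library from each of the experiments 17_9, 25_9 and 1_10, as the library names give them, and values below follow that order. Whether the experiments used separate NPC isolations is not given in the sources used here, so p-values measure the spread between these libraries.

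In lipolysis, triglyceride is cut stepwise on the droplet surface: Pnpla2 takes the first fatty acid, Lipe the next and Mgll the last. Perilipins coat the droplet and govern access to it, Abhd5 activates Pnpla2 and G0s2 inhibits it. Lpl instead frees fatty acids from lipoproteins outside the cell, and Angptl4 inhibits Lpl. In the brain, Mgll is also the main enzyme that degrades the endocannabinoid arachidonoylglycerol.

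Library totals ranged from 16509710 to 22245224 counts, and CPM were scaled with TMM. Trp53, the deleted gene, was at 13.7 to 19.3 CPM in p53-/- co-cultures against 61.8 to 78.8 CPM in p53+/+ co-cultures, and at 11.7 to 17.4 CPM in p53-/- NPCs alone against 80.3 to 108.6 CPM in p53+/+ NPCs alone, so the libraries followed their genotype labels with some Trp53 RNA left. Markers chosen for neural stem and progenitor cells summed to at least 7708 CPM in every library, whereas adipocyte markers, the cells best known for these genes, summed to at most 2.34 CPM. The 1 adipocyte marker that could be tested, Cidea, was higher in co-culture in both genotypes. Microglia and macrophage markers summed to at most 5.31 CPM, and the 1 that could be tested, P2ry12, was also higher in both. The 12 endothelial markers that could be tested were higher in co-culture in both genotypes, with sums of 98.0 to 119.6 CPM in p53-/- co-cultures against 13.7 to 18.9 CPM in p53-/- NPCs alone, and of 109.7 to 178.2 CPM in p53+/+ co-cultures against 15.2 to 17.8 CPM in p53+/+ NPCs alone. Of 7 tested mural and fibroblast markers, 3 were higher and 1, Acta2, was lower in co-culture in each genotype. The part of bmvEC, mural and fibroblast RNA in the results below was not tested. In these bulk samples, fewer cells of a type and less RNA per cell cannot be told apart.

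Most of the differences found in the 10 genes lay between co-culture and alone. At an adjusted p under 0.05, 5 were higher in co-culture than alone in p53-/- NPCs and none was lower, where 18.8% of all 13745 genes tested were higher and 17.0% lower. In p53+/+ NPCs 7 were higher and none was lower, against 21.2% and 18.3% of all genes. Without Plin4, which could pass the filter only if it was high in co-culture, the counts were 4 and 6. Unadjusted p was under 0.05 for 6 of the 10 genes in p53-/- and 7 in p53+/+ NPCs, Plin4 among them, all with positive fold changes, where 45.9% and 48.6% of all genes had such a p in either direction. DESeq2 called 6 and 7 genes, all higher, against 35.4% and 37.2% of all genes in either direction. Without Plin4, the median log2 fold change of the other 9 genes was 0.61 in p53-/- and 0.82 in p53+/+ NPCs, against -0.01 and 0.00 over all genes tested.

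**Figure D1:**
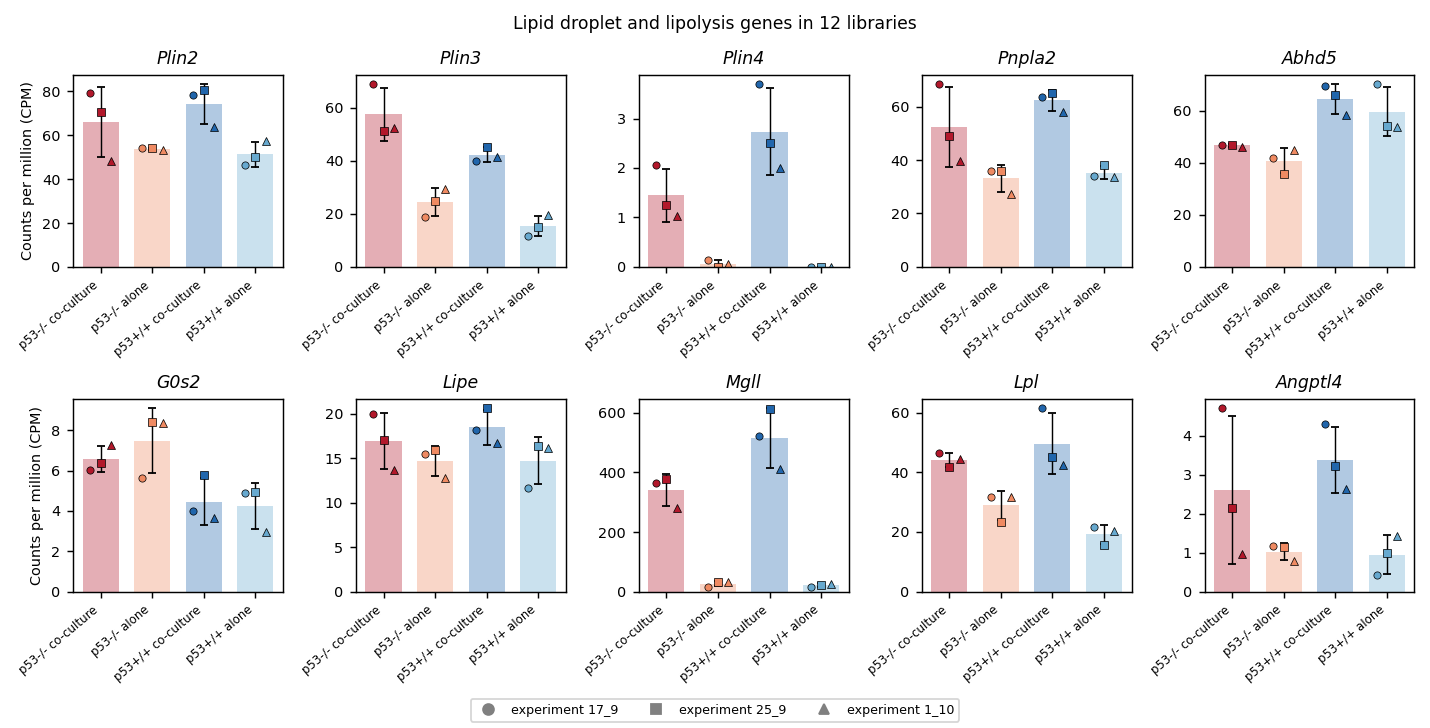
CPM of the 10 genes in each of the 4 groups. Bars are means and lines the SD of 3 libraries, symbols are single libraries (circles for 17_9, squares for 25_9, triangles for 1_10), and every y axis starts at 0. Mgll stood at 280.1 to 612 CPM in the co-cultures and at 14.5 to 33.8 CPM alone, while Abhd5 and Lipe changed little with culture.

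The strongest difference with enough counts to measure was in Mgll, which releases the last fatty acid from glycerol. Mgll was at 365, 379 and 280.1 CPM in p53-/- co-cultures, against 16.1, 33.8 and 31.1 CPM in p53-/- NPCs alone. The p53+/+ co-cultures were at 521, 612 and 413 CPM, against 14.5, 23.5 and 26.0 CPM in p53+/+ NPCs alone. Every co-culture library lay far above every library of NPCs alone in both genotypes. The log2 fold change was 3.66 ± 0.29 (SE, n = 3 against 3) in p53-/- NPCs (edgeR quasi-likelihood test, adjusted p = 3.54e-06) and 4.59 ± 0.31 in p53+/+ NPCs (adjusted p = 5.79e-07). Both calls were kept in all 15 fits that left out a library or an experiment.

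Promoters are shown for the 2 genes with the strongest differences with co-culture, Mgll and Plin4, and for Abhd5, the gene called with p53 loss in the unblocked fit. RefSeq windows on GRCm38.p6 were found for 8 of the 10 genes, with none for Lpl and Angptl4. Each sequence is the 250 bases before the start, 5′ to 3′ on the gene's strand, with capitals marking matches on either strand to 3 motifs: the E-box CACGTG, the forkhead motif GTAAACA and the nuclear receptor half-site AGGTCA, which do not overlap each other here.
Mgll, chr6:88724162-88724411 (+): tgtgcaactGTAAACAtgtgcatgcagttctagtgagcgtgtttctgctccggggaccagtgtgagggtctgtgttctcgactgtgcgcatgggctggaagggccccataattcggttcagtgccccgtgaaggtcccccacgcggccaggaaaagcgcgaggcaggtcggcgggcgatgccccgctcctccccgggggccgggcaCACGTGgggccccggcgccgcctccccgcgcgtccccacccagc
Plin4, chr17:56109783-56110032 (-): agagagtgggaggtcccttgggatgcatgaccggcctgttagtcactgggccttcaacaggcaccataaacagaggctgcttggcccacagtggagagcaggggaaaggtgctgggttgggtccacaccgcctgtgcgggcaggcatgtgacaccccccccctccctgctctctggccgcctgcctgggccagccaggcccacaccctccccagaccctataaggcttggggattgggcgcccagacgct
Abhd5, chr9:122351366-122351615 (+): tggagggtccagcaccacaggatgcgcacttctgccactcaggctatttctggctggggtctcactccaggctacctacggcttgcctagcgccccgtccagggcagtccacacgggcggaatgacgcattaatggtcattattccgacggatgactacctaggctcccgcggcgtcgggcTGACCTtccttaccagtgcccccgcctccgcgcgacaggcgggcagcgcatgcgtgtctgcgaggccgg
The Mgll window printed held a forkhead match and an E-box, the second Mgll window, chr6:88724454-88724703, held none of the 3, the Abhd5 window held a half-site on the reverse strand, and the Plin4 window held none of the 3. Over the 10 windows of the 8 genes (Mgll and Lipe have 2 each), 2 held the E-box, 2 the forkhead motif and 2 the half-site. Over all 32851 windows, 6.02% held the E-box, 3.17% the forkhead motif and 14.0% the half-site. The p53 half-site consensus was in 7.13% of all windows and in none of the 10. These are letter matches only, and the files measure no binding at them.

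Among the coat genes, Plin3 and Plin4 were higher in co-culture in both genotypes, and Plin2 in p53+/+ NPCs. Plin3, which is soluble in the cytosol and moves onto nascent droplets, was at 69.1, 51.3 and 52.3 CPM in p53-/- co-cultures, against 18.7, 25.0 and 29.2 CPM in p53-/- NPCs alone. For p53+/+ NPCs it stood in co-culture at 39.9, 45.4 and 41.4 CPM, against 11.8, 15.0 and 19.4 CPM in p53+/+ NPCs alone. The groups did not overlap, and Plin3 rose by a log2 fold change of 1.25 ± 0.20 in p53-/- NPCs (edgeR adjusted p = 0.000576) and of 1.45 ± 0.20 in p53+/+ NPCs (edgeR adjusted p = 0.000153).

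Plin4, a perilipin best known from fat and muscle, was near the limit of detection. It had 41, 25 and 19 counts (2.05, 1.26 and 1.03 CPM) in p53-/- co-cultures, against 3, 0 and 1 counts in p53-/- NPCs alone. In p53+/+ co-cultures it had 68, 55 and 38 counts (3.71, 2.50 and 2.00 CPM), against 0 counts in all 3 libraries of p53+/+ NPCs alone. Summed over the group, 85 against 4 counts gave a 22.1-fold ratio in p53-/- NPCs, with a 95% exact interval of 8.32 to 82.9 that covers counting error only. The 161 against 0 counts in p53+/+ NPCs gave an at least 50.5-fold higher level, taking 3 counts over the group as the floor. Since it entered the test only through the co-culture libraries, no p is given for this difference. Within the co-cultures, Plin4 was highest in experiment 17_9 and lowest in 1_10 in both genotypes, the same order as the endothelial sum. Other genes shared this order: Abhd5 in both genotypes, Plin2, Pnpla2 and Lipe in p53-/- and Lpl in p53+/+ co-cultures. What sets the order was not tested.

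**Figure D2:**
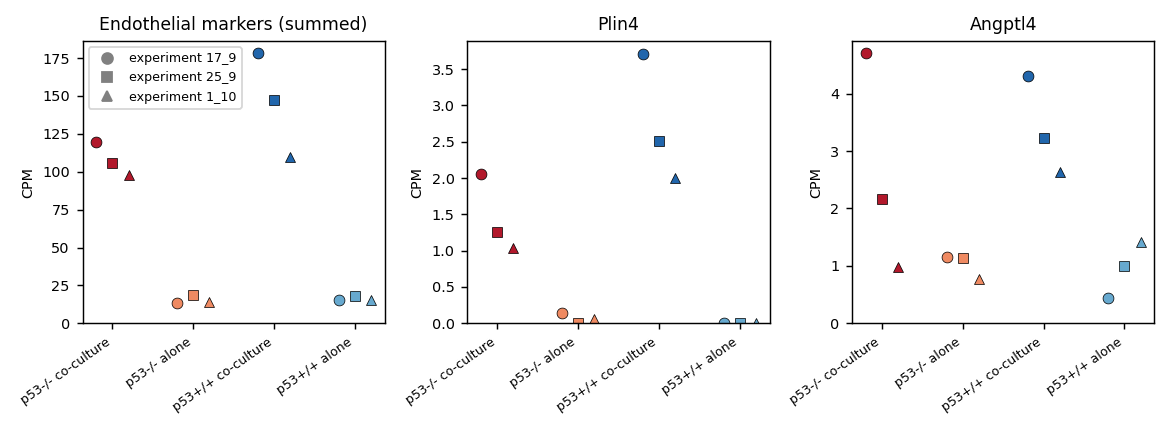
CPM of 13 summed endothelial markers, Plin4 and Angptl4 in each library, with a y axis from 0. In co-culture all 3 panels are highest in 17_9 and lowest in 1_10 in both genotypes, with markers between 98.0 and 119.6 CPM in p53-/- and between 109.7 and 178.2 CPM in p53+/+. Abhd5, not drawn here, had the same order in both genotypes.

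Plin2, the coat protein of droplets in most cells, was at 79.4, 70.6 and 48.5 CPM in p53-/- co-cultures, against 54.1, 54.2 and 53.3 CPM in p53-/- NPCs alone. In p53+/+ co-cultures it was at 78.5, 80.9 and 64.0 CPM, against 46.6, 50.0 and 57.6 CPM in p53+/+ NPCs alone. The p53-/- groups overlapped because of the library of experiment 1_10, whereas the p53+/+ groups did not. Plin2 rose by a log2 fold change of 0.53 ± 0.17 in p53+/+ NPCs (edgeR adjusted p = 0.0216) and had 0.30 ± 0.17 in p53-/- NPCs (edgeR adjusted p = 0.177). The p53+/+ call was lost without either experiment 17_9 or 25_9 and without each of the 4 p53+/+ libraries of those experiments, with adjusted p up to 0.234 (log2 fold changes 0.45 to 0.51). In p53-/- NPCs, Plin2 passed the test without experiment 1_10 (log2 fold change 0.49, edgeR adjusted p = 0.0233) or without its co-culture library (0.47, edgeR adjusted p = 0.0161).

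Of the remaining lipolysis genes inside the cell, Pnpla2 was higher in co-culture, and Lipe, Abhd5 and G0s2 did not pass the test in either genotype. Pnpla2, the lipase of the first step, was at 68.6, 49.0 and 39.5 CPM in p53-/- co-cultures, against 36.1, 35.9 and 27.4 CPM in p53-/- NPCs alone. The p53+/+ co-cultures were at 63.6, 65.3 and 58.1 CPM, against 34.0, 38.0 and 33.7 CPM in p53+/+ NPCs alone. The groups did not overlap in either genotype, and Pnpla2 rose by a log2 fold change of 0.66 ± 0.18 in p53-/- NPCs (edgeR adjusted p = 0.0125) and of 0.82 ± 0.18 in p53+/+ NPCs (edgeR adjusted p = 0.00313). The p53-/- call was lost in 4 of the 15 fits, without the p53-/- co-culture library of 17_9 (0.41, adjusted p = 0.0798), the p53-/- library alone of 1_10 (0.53, adjusted p = 0.0563), experiment 17_9 (0.50, adjusted p = 0.0858) or experiment 25_9 (0.77, adjusted p = 0.0764). The p53+/+ call was lost without experiment 25_9 (0.85, adjusted p = 0.0603).

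Lipe, the hormone-sensitive lipase of the next step, was at 20.0, 17.0 and 13.7 CPM in p53-/- co-cultures, against 15.5, 15.9 and 12.8 CPM in p53-/- NPCs alone. For p53+/+ NPCs it stood in co-culture at 18.1, 20.6 and 16.7 CPM, against 11.6, 16.4 and 16.1 CPM in p53+/+ NPCs alone. Its log2 fold changes were 0.20 ± 0.18 (edgeR adjusted p = 0.414) and 0.33 ± 0.18 (edgeR adjusted p = 0.173). Abhd5, the activator of Pnpla2, averaged 46.6 ± 0.446 CPM in p53-/- co-cultures and 40.8 ± 4.69 CPM in p53-/- NPCs alone, and 64.6 ± 5.73 CPM in p53+/+ co-cultures and 59.5 ± 9.41 CPM in p53+/+ NPCs alone (SD, n = 3). Its log2 fold changes with co-culture were 0.19 ± 0.13 and 0.12 ± 0.13 (edgeR adjusted p = 0.279 and 0.497). G0s2, the inhibitor of Pnpla2, averaged 6.55 ± 0.645 CPM in p53-/- co-cultures and 7.48 ± 1.61 CPM in p53-/- NPCs alone, and 4.46 ± 1.15 CPM in p53+/+ co-cultures and 4.25 ± 1.12 CPM in p53+/+ NPCs alone. Its log2 fold changes were -0.19 ± 0.25 and 0.08 ± 0.26 (edgeR adjusted p = 0.592 and 0.835).

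Outside the cell, Lpl was higher in co-culture in both genotypes, and its inhibitor Angptl4 in p53+/+ NPCs. Lpl was at 46.6, 41.9 and 44.5 CPM in p53-/- co-cultures, against 31.7, 23.4 and 31.9 CPM in p53-/- NPCs alone. In p53+/+ co-cultures it was at 61.5, 45.0 and 42.5 CPM, against 21.7, 15.7 and 20.2 CPM in p53+/+ NPCs alone. No library of NPCs alone reached any co-culture library of its genotype, and Lpl rose by a log2 fold change of 0.61 ± 0.17 in p53-/- NPCs (edgeR adjusted p = 0.0159) and of 1.37 ± 0.18 in p53+/+ NPCs (edgeR adjusted p = 9.55e-05). The p53+/+ call was kept in all 15 fits that left out a library or an experiment. The p53-/- call was lost without the p53-/- co-culture library of 17_9 (0.57, adjusted p = 0.0524), the p53-/- library alone of 25_9 (0.48, adjusted p = 0.0554) or experiment 25_9 (0.52, adjusted p = 0.113).

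Angptl4 had low counts. It was at 4.71, 2.16 and 0.976 CPM in p53-/- co-cultures, against 1.16, 1.14 and 0.777 CPM in p53-/- NPCs alone. The p53+/+ co-cultures were at 4.30, 3.23 and 2.64 CPM, against 0.438, 0.993 and 1.42 CPM in p53+/+ NPCs alone. The p53+/+ groups did not overlap and Angptl4 rose there by a log2 fold change of 1.80 ± 0.51 (edgeR adjusted p = 0.0140), a call lost without the p53+/+ co-culture library of 17_9 (1.61, adjusted p = 0.0584) or without experiment 25_9 (1.86, adjusted p = 0.131). The p53-/- groups overlapped, with a log2 fold change of 1.34 ± 0.51 (edgeR adjusted p = 0.0548). Blocked by experiment, this became 1.27 and passed the test (edgeR adjusted p = 0.0403, with 0.00978 to 0.386 over all 23 alternatives), in a fit that called 24.3% of all genes higher. Gpihbp1, which carries Lpl to the surface of capillary endothelium, had 8 counts in all in p53-/- co-cultures and 0 in p53-/- NPCs alone, and 16 in p53+/+ co-cultures and 0 in p53+/+ NPCs alone.

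**Figure D3:**
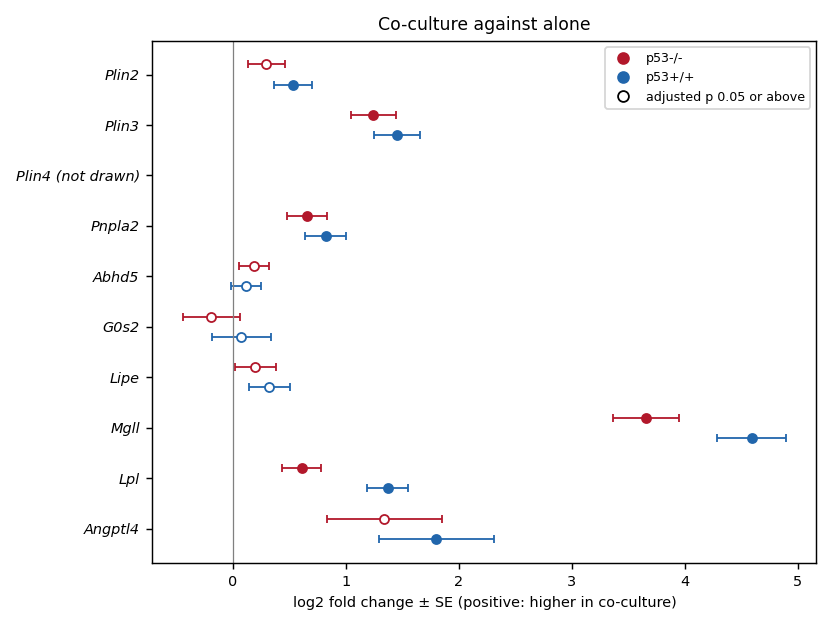
Log2 fold change ± SE of co-culture against alone from the edgeR fit, in p53-/- (red) and p53+/+ (blue) NPCs. Filled points passed an adjusted p of 0.05, and Plin4 is not drawn because a group at 0 counts gives no fold. Mgll lies furthest right at 3.66 and 4.59, and Lpl shows 0.61 and 1.37.

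The co-culture effect could not be told to differ between genotypes. Plin4 is left out of the next count, since it had 0 counts in p53+/+ NPCs alone. Of the other 9 genes, 1 had a positive interaction and the rest a negative one, a lower fold change in p53-/- NPCs. The interaction called none of the 10 genes (edgeR). Over all genes tested, 47.31% had a positive interaction, and its calls were 0% higher and 0.0364% lower. Unadjusted p was under 0.05 for 3 of the 10 genes (Lpl, Mgll and Plin4) and for 7.10% of all genes. Of these 3, Plin4 entered the test only through the co-culture libraries. DESeq2 called 0 of the 10 and 0.174% of all genes, or 1 of the 10 and 2.25% of all genes with the experiment block. The interaction was -0.93 ± 0.38 for Mgll (edgeR adjusted p = 0.686), -0.76 ± 0.25 for Lpl (edgeR adjusted p = 0.670) and -0.24 ± 0.23 for Plin2 (edgeR adjusted p = 0.856). For Lpl, DESeq2 with the experiment block gave -0.74 and passed the test (adjusted p = 0.0198, with 0.0198 to 1.0 over all 23 alternatives).

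Loss of p53 was asked about within each culture. At an adjusted p under 0.05 in the unblocked fit, 1 of the 10 genes was lower and none higher in p53-/- than in p53+/+ NPCs in co-culture, where 4.93% of all genes tested were lower and 3.24% higher (677 and 445 genes, or 555 and 624 when scaled by library size alone). Alone, the same gene was lower and none was higher, against 4.27% and 2.02% of all genes. An unadjusted p under 0.05 was found for 3 of the 10 genes in co-culture and 4 alone, against 25.3% and 23.8% of all genes. DESeq2 called 1 of the 10 in co-culture and 4 alone, against 12.1% and 10.7% of all genes. Blocked by experiment, edgeR called 2 of the 10 lower in co-culture, Abhd5 and Plin4, where 10.9% of all genes were lower. Alone it called 3 higher, G0s2, Lpl and Plin3, where 7.25% of all genes were higher, and Abhd5 stayed lower.

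The gene called in the unblocked fit was Abhd5, which was at 46.9, 46.8 and 46.1 CPM in p53-/- co-cultures, against 69.5, 65.9 and 58.3 CPM in p53+/+ co-cultures. Alone it was at 41.7, 35.7 and 44.9 CPM in p53-/- NPCs, against 70.3, 54.2 and 53.9 CPM in p53+/+ NPCs. All p53-/- libraries lay below all p53+/+ libraries of the same culture, and the difference was negative in 3 of 3 experiments in each. Abhd5 fell, with a log2 fold change of -0.47 ± 0.13 in co-culture (edgeR adjusted p = 0.0465) and of -0.54 ± 0.13 alone (edgeR adjusted p = 0.0301). The size held in the 15 fits that left out a library or an experiment (-0.54 to -0.43 in co-culture and -0.72 to -0.40 alone), but the call was lost in 11 of them in co-culture, where p reached 0.409, and in 5 alone, where p reached 0.275. Of the exon bases annotated for Abhd5 in GENCODE M21, 30.1% overlap the antisense gene A730085K08Rik, which is listed at 0 counts in all 12 libraries, and the strand setting of the counting is not given in the sources used here.

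**Figure D4:**
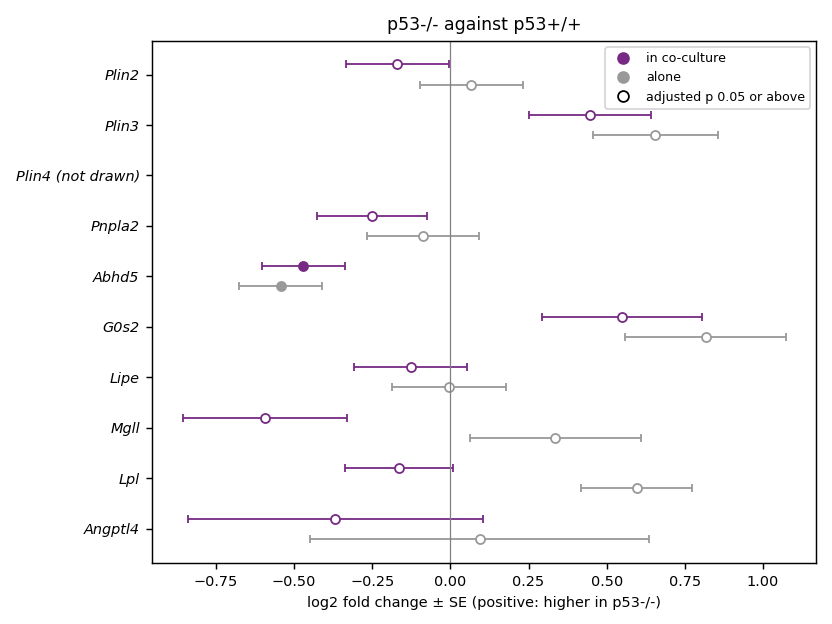
Log2 fold change ± SE of p53-/- against p53+/+ NPCs from the edgeR fit, in co-culture (purple) and alone (grey). Filled points passed an adjusted p of 0.05, and Plin4 is not drawn. This fit has no block by experiment, and in it only Abhd5 is filled, at -0.47 and -0.54.

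Several genes had differences with p53 loss that the unblocked fit did not call. Alone, Plin3 averaged 24.3 ± 5.28 CPM in p53-/- NPCs and 15.4 ± 3.80 CPM in p53+/+ NPCs, G0s2 7.48 ± 1.61 CPM in p53-/- and 4.25 ± 1.12 CPM in p53+/+ NPCs, and Lpl 29.0 ± 4.86 CPM in p53-/- and 19.2 ± 3.13 CPM in p53+/+ NPCs (SD, n = 3 each). Their log2 fold changes were 0.66 ± 0.20, 0.82 ± 0.26 and 0.60 ± 0.18 (edgeR adjusted p = 0.0712, 0.0805 and 0.0639), and each was positive in 3 of 3 experiments. In the fit blocked by experiment all 3 passed the test: Plin3 at 0.66 (edgeR adjusted p = 0.0349, with 0.0102 to 0.388 over 24 alternatives), G0s2 at 0.82 (edgeR adjusted p = 0.0320, with 0.0122 to 0.394) and Lpl at 0.60 (edgeR adjusted p = 0.00860, with 0.0011 to 0.248). This fit called 7.25% of all genes higher.

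Some mural and fibroblast markers also differed between genotypes alone. Of the 7 that could be tested, 2 were higher in p53-/- NPCs alone, Pdgfrb of pericytes and Col1a1 of fibroblasts, and 0 were lower. The median log2 fold change of the 7 was 0.70, against 0.05 over all genes. Of the same list, Rgs5 and Lum had lower means in p53-/- than in p53+/+ NPCs alone. Both had few counts, 7 and 10 for Rgs5 and 2 and 4 for Lum. The 10 markers summed to 787, 108.9 and 71.1 CPM in p53-/- NPCs alone, against 452.4, 80.5 and 67.5 CPM in p53+/+ NPCs alone. Both libraries alone of experiment 17_9 stood apart through Acta2, the actin of smooth muscle, at 765.3 CPM in p53-/- and 431.5 CPM in p53+/+ NPCs. Without Acta2 the sums were 21.7, 45.3 and 38.0 CPM in p53-/- NPCs alone, against 20.9, 25.5 and 23.1 CPM in p53+/+ NPCs alone. Most of this was a single marker, Cspg4, which averaged 27.3 ± 14.7 CPM in p53-/- and 19.6 ± 2.82 CPM in p53+/+ NPCs alone (SD). Without experiment 17_9 the unblocked log2 fold changes alone were 0.65 for Plin3, 1.08 for G0s2 and 0.61 for Lpl (edgeR adjusted p = 0.0843, 0.110 and 0.147) and -0.44 for Abhd5 (edgeR adjusted p = 0.188). In co-culture the 10 markers summed to 72.2 to 104.9 CPM in p53-/- NPCs, against 62.1 to 68.9 CPM in p53+/+ NPCs. Cspg4 averaged 49.5 and 40.1 CPM of these. At an adjusted p under 0.05, 0 of the 7 tested markers were called with p53 loss in co-culture (edgeR). Unadjusted p was under 0.05 for 3 higher and 1 lower, where 25.3% of all genes had such a p in either direction. Rgs5 averaged 0.373 CPM in p53-/- and 1.00 CPM in p53+/+ co-cultures. Any part of mural or fibroblast RNA in the differences with p53 loss was not tested.

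In co-culture, Plin4 averaged 1.45 ± 0.538 CPM in p53-/- and 2.74 ± 0.875 CPM in p53+/+ NPCs, with a log2 fold change of -0.91 ± 0.42 (edgeR adjusted p = 0.202) that passed the test with the block (-0.93, edgeR adjusted p = 0.0386, with 0.0386 to 0.595 over 23 alternatives), where 10.9% of all genes were called lower. Mgll averaged 341 ± 53.4 CPM in p53-/- and 515 ± 99.6 CPM in p53+/+ co-cultures. All p53-/- libraries lay below all p53+/+ libraries, with a log2 fold change of -0.59 ± 0.26 (edgeR adjusted p = 0.178) that passed only with DESeq2 and the block (-0.59, adjusted p = 0.0303, with 0.0303 to 0.608 over 24 alternatives), where 21.9% of all genes were called in either direction. Endothelial sums were also lower in p53-/- co-cultures, at 98.0 to 119.6 CPM against 109.7 to 178.2 CPM in p53+/+ co-cultures, where none of the 12 markers tested passed, and their part in these differences was not tested. Plin3 and G0s2 went the other way in co-culture, with all p53-/- libraries above all p53+/+ libraries. Their log2 fold changes were 0.45 ± 0.19 and 0.55 ± 0.26 (edgeR adjusted p = 0.172 and 0.203), each positive in 3 of 3 experiments. Neither passed in any of the 24 alternatives. The remaining genes had log2 fold changes with p53 loss from -0.37 to -0.13 in co-culture. Alone, those not given above had -0.09 to 0.34, apart from Plin4, which had 4 counts in p53-/- and 0 in p53+/+ NPCs.

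Levels between genes were compared per kilobase (CPM per kb), using the longest protein-coding transcript of each gene in GENCODE M21 on GRCm38, since the annotation that was counted is of another build. In co-culture Mgll came first, at 85.5 ± 13.4 CPM per kb in p53-/- and 129 ± 25.0 in p53+/+ NPCs, followed by Plin2 at 35.1 ± 8.45 and 39.4 ± 4.83 (SD, n = 3). Alone Plin2 came first, at 28.5 ± 0.276 CPM per kb in p53-/- and 27.2 ± 3.00 in p53+/+ NPCs, and Mgll was at 6.76 ± 2.39 and 5.34 ± 1.51. Pnpla2 followed Mgll and Plin2 in both co-culture groups and Plin2 and Abhd5 in both groups alone. In p53-/- NPCs alone its 12.6 ± 1.89 CPM per kb overlapped the 12.9 ± 1.49 of Abhd5. Plin4 and Angptl4 came last, at no more than 1.42 CPM per kb in any library.

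Genes whose pattern across the 12 libraries was nearest to each of the 10 were found by the root mean square difference of their centred log2 CPM. Nearest to Mgll, whose own SD was 2.22, were Lgals3bp at 0.32 and Uba7 at 0.33. Nearest to Plin4 were Inpp5d at 0.29 and Cyth4 at 0.33, to Lpl were Vcam1 at 0.16 and Pmp22 at 0.20, and to Plin3 were Slc39a8 at 0.20 and Tmeff1 at 0.23. For Abhd5 the nearest were Tmem19 at 0.07 and Wdr31 at 0.10. Within the 10, Plin2 and Lipe were nearest to each other at 0.14, with own SDs of 0.29 and 0.24. Plin4 and Mgll were 0.59 apart, with own SDs of 2.16 and 2.22. The difference is not scaled by the SD, so genes that vary little lie near each other.

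Other genes of the pathway were counted from 4 lists. For comparison, edgeR called 18.8% of all genes higher and 17.0% lower with co-culture in p53-/- NPCs, and 21.2% and 18.3% in p53+/+ NPCs. With p53 loss it called 3.24% higher and 4.93% lower in co-culture, and 2.02% and 4.27% alone. Unadjusted p was under 0.05 for 45.9% and 48.6% with co-culture, and for 25.3% and 23.8% with p53 loss, in either direction. DESeq2 called 35.4% and 37.2%, and 12.1% and 10.7%, in the same order. Of 18 further tested genes of the droplet coat and its turnover, 7 were higher and none lower in co-culture in p53-/- NPCs and 10 were higher and none lower in p53+/+ NPCs (edgeR; 10 higher and 0 lower at unadjusted p under 0.05 in each; 7 and 11 higher, 0 lower, by DESeq2). Cideb, which links droplets with lipoprotein assembly in liver, averaged 2.93 ± 0.549 CPM in p53-/- co-cultures and 0.414 ± 0.149 CPM alone, with a log2 fold change of 2.81 ± 0.37 (edgeR adjusted p = 0.000136), and 2.04 ± 0.34 in p53+/+ NPCs (edgeR adjusted p = 0.000589). Hsd17b11, a droplet-associated dehydrogenase, had log2 fold changes of 1.68 ± 0.22 and 1.48 ± 0.22 (edgeR adjusted p = 0.000153 and 0.000257). With p53 loss none of these 18 passed in co-culture (0 higher and 2 lower at unadjusted p, 0 and 1 by DESeq2) or alone (1 and 1, and 1 and 1 by DESeq2).

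Of 19 tested genes of triglyceride synthesis and droplet formation, 8 were higher and 2 lower in co-culture in p53-/- NPCs, and 8 higher and 1 lower in p53+/+ NPCs. Gpam, which makes the first acylation step of glycerolipid synthesis, had log2 fold changes of 1.66 ± 0.21 and 1.61 ± 0.21 (edgeR adjusted p = 0.000129 and 0.000112). Agpat3, which adds the next acyl chain, had 1.25 ± 0.15 and 1.24 ± 0.15. With p53 loss, 3 genes were lower in co-culture (Agpat4, Fitm2 and Agpat3, from -0.72 to -0.60) and 3 alone (Gpd1, Lpin3 and Agpat3, from -1.02 to -0.62). None was higher (0 and 1 at unadjusted p, 0 and 0 by DESeq2).

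Of 8 genes of monoglyceride and endocannabinoid turnover beside Mgll, 3 were higher and 1 lower in co-culture in each genotype. Faah, which degrades the endocannabinoid anandamide, had log2 fold changes of 0.59 ± 0.18 in p53-/- and 0.62 ± 0.18 in p53+/+ NPCs (edgeR adjusted p = 0.0247 and 0.0180). Cnr1, the cannabinoid receptor of neurons, fell, with log2 fold changes of -0.91 ± 0.15 and -1.37 ± 0.15 (edgeR adjusted p = 0.000824 and 3.57e-05). The other 2 higher genes were Abhd12 and Ppt1, and Ppt1 was the one gene lower with p53 loss, at -0.61 ± 0.15 in co-culture and -0.57 ± 0.15 alone (edgeR adjusted p = 0.0277 and 0.0450).

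Of 18 genes of lipoprotein lipase handling, 8 were higher and 2 lower in co-culture in p53-/- NPCs. In p53+/+ NPCs 5 were higher and 4 lower, close to the 21.2% and 18.3% of all genes. Apoe, an apolipoprotein that astroglia secrete, averaged 1916 ± 658 CPM in p53-/- co-cultures and 246 ± 113 CPM in p53-/- NPCs alone, and 4070 ± 1431 CPM in p53+/+ co-cultures and 669 ± 184 CPM in p53+/+ NPCs alone. Its log2 fold changes were 2.96 ± 0.38 and 2.61 ± 0.37 (edgeR adjusted p = 0.000122 and 0.000194). With p53 loss 2 genes were lower in co-culture and 4 alone, among them Pcsk6 in both (-1.08 ± 0.20 and -1.28 ± 0.21) and Apoe alone (-1.44 ± 0.36, edgeR adjusted p = 0.0323). At unadjusted p under 0.05, 1 was higher and 3 lower in co-culture, and 0 were higher and 9 lower alone (edgeR). DESeq2 called 0 higher and 2 lower in co-culture, and 0 higher and 7 lower alone. The median log2 fold change of this list with p53 loss was -0.13 in co-culture and -0.57 alone, against 0.02 and 0.05 over all genes. Median log2 fold changes of the 4 lists with co-culture ranged from 0.14 to 0.38 in p53-/- and from 0.22 to 0.48 in p53+/+ NPCs, against -0.01 and 0.00 over all genes, and the interaction called 0 genes in any list (edgeR; 0 to 3 at unadjusted p, 0 by DESeq2, 0 or 1 by DESeq2 with the block).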

How the data were processed

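RNA was sequenced by the authors from stranded mRNA libraries on an Illumina HiSeq. Per the submitters' processing notes, reads were aligned to mm9 with TopHat2 2.0.11 and counted per gene with HTSeq 0.6.1. The values deposited by the authors are raw counts per gene symbol. Neither annotation nor strand setting is stated, so overlapping and antisense genes are uncertain.

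Counts were filtered with filterByExpr (minimum count 10), scaled by TMM (factors 0.961 to 1.04) and tested with edgeR 4.0.16 (quasi-likelihood F test, R 4.3.3), with 1 coefficient per group over all 12 libraries and Benjamini-Hochberg adjustment in each of 5 comparisons (threshold 0.05). SEs are the log2 fold change over the root of F. This main fit leaves out the pairing by experiment. DESeq2 1.42.0 and fits blocked by experiment served as alternatives. The script was tested on simulated counts. Totals of 16509710 to 22245224 counts limit the precision of Plin4 and Angptl4.

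Experiment numbers pair the libraries: the key to the study's count table says that identical numbers are paired, and deviations from group means correlated in all 18 same-number pairs (r from 0.128 to 0.618), against -0.608 to 0.241 in 36 other pairs. No pair of libraries of a group was a copy (chi-square 13.2 to 62.5 per degree of freedom over 12 pairs). Columns were matched to groups and experiments, not to single samples.

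The 10 genes, the lists and the tests were chosen with earlier results of these data known. Pathway genes named are up to 3 called per direction and comparison whose mean log2 CPM was 0 or more, and patterns use the 2 nearest genes (prior count 2). Not every gene meeting these rules is reported here. Figures were drawn with matplotlib 3.10.9.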

Additional observations from a re-analysis of the deposited data

Results flagged for a closer look

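Mgll differed from one culture to the other in the direction of its difference with p53 loss. Its mean log2 difference between p53-/- and p53+/+ NPCs within experiments was -0.59 in co-culture, negative in 3 of 3 experiments, and 0.31 alone, positive in 3 of 3. Neither difference passed in the unblocked fit (edgeR adjusted p = 0.178 in co-culture and 0.485 alone). The interaction test of the change in Mgll did not pass (-0.93 ± 0.38, edgeR adjusted p = 0.686). Lpl, Plin2, Angptl4 and Plin4 also had a negative log2 fold change with p53 loss in co-culture and a positive one alone. For Lpl these were -0.16 and 0.60.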

How the results depend on the processing

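Values of the 10 genes in 5 comparisons (50 results) were recomputed under 9 alternatives and in 15 fits that left out a library or an experiment. Under the 9 alternatives, 409 of 429 values kept their direction and side of the threshold, 16 became significant, 2 lost the call and 2 reversed, both of them close to 0: Lipe with p53 loss alone without a filter (0.0044) and Angptl4 with p53 loss alone under DESeq2 with the replicate block (-0.023). The cause was not tested.

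For p53 loss in co-culture the count of genes called, 1 in the reported fit, was 0 without a filter (Abhd5 at -0.47, adjusted p = 0.0586) and 2 with the replicate block under edgeR and under DESeq2. For p53 loss alone, 1 in the reported fit, it was 0 with only the groups compared (Abhd5 at -0.58, adjusted p = 0.0864) and 4 with DESeq2, with the replicate block and with both. For the interaction it was 1 with DESeq2 and the replicate block. With the replicate block 6 and 7 genes were called with co-culture in p53-/- and p53+/+ NPCs, and the block changed no call other than those given in the text. Over all genes, calls with p53 loss went up to 1373 higher and 1499 lower in co-culture with the replicate block (445 and 677 without) and to 996 and 1282 alone (277 and 587 without). The interaction called 0 higher and 5 lower genes, 3 and 8 with the block, 6 and 14 with DESeq2 and 204 and 72 with both. Pathway genes called with p53 loss in co-culture (6) became 11 with the replicate block and 13 with DESeq2 and the block. Alone (8) they became 13 with DESeq2, with the block and with both, and 5 with only the groups compared. For the interaction (0) they became 1 with DESeq2 and the block.

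Without 1 library or 1 experiment, counts of the 10 genes called ranged from 3 to 7 and from 4 to 7 for co-culture in p53-/- and p53+/+ NPCs, from 0 to 1 for p53 loss in co-culture and from 0 to 2 alone, and stayed at 0 for the interaction. The 3 came without the p53-/- co-culture library of 17_9 or without experiment 25_9, and the 4 without experiment 25_9. Pathway counts ranged from 12 to 32, 11 to 33, 0 to 9 and 0 to 10, lowest without experiment 25_9, which leaves 8 libraries. Values that changed sign in these fits were G0s2 with co-culture in p53+/+ (-0.15 to 0.28), Plin2 (-0.32 to 0.014), Lipe (-0.29 to 0.0053) and Angptl4 (-1.10 to 0.020) with p53 loss in co-culture, Plin2 (-0.014 to 0.16), Lipe (-0.19 to 0.12) and Angptl4 (-0.33 to 0.61) with p53 loss alone, and Pnpla2 (-0.37 to 0.042), Abhd5 (-0.067 to 0.19) and Lipe (-0.23 to 0.046) in the interaction, none of them called. The fits without an experiment, and all alternatives for the pathway lists, were chosen after seeing the data. Depth limits Plin4 and Angptl4, which have at most 68 and 94 counts in a library.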
